A study of Homo sapiens with 8 samples.

Results

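The genes described here are 38 markers that are commonly used to sort urothelial tumours and cell lines into basal, luminal and mesenchymal kinds or to name stem-like cells. They were taken by symbol from the 57820 genes of the count table, and all 38 were found. They comprise 8 basal, 8 luminal, 4 simple epithelial keratin, 4 epithelial adhesion, 8 mesenchymal and 6 stem-like genes. They were measured by RNA-seq in side-population (SP) and non-side-population (NSP) cells of J82, an established line from an invasive human bladder cancer, with 4 libraries per group. Both groups came from the same unmodified line grown in DMEM with serum. Cells were stained with the DNA dye Hoechst and sorted, and the SP fraction keeps little of the dye while the NSP fraction holds the rest. The labels give no separate cultures or sorts for the replicates, so p-values measure the spread between these libraries, which may be technical. The libraries held 1431823 to 2073526 counts, far below the number of raw reads per sample that the paper states. The reason for this gap was not tested. Values are given as CPM, which are counts scaled to the normalized library size.

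Bladder epithelium is layered. Its basal cells make keratins such as KRT5 and KRT14 under the control of the transcription factor TP63, and its superficial cells make KRT20 and the uroplakins, the plaque proteins of the luminal surface. Simple epithelial keratins are shared by most glandular and urothelial cells, and they pair as type I and type II chains (KRT18 or KRT19 with KRT7 or KRT8) to form filaments. Tumour cells that lose epithelial features typically lose the adhesion proteins E-cadherin (CDH1) and EPCAM and carry vimentin (VIM), N-cadherin (CDH2) and the repressors of the ZEB, SNAI and TWIST families. ALDH1A1, ALDH1A3, PROM1, SOX2, SOX9 and BMI1 have been used to mark stem-like cells in many carcinomas.

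The counts at these genes have to be read with the strand in mind. The strand setting of the counting is not given in the sources used here, and at several markers a gene on the opposite strand had a far higher density of counts per kb of its exons. Of the 38 markers, 16 overlap in their exons with a counted gene of the opposite strand and 22 do not. At VIM the gene ENSG00000234961, whose exons lie for 87.7% of their length inside VIM exons, had 54800 counts per kb of exon, against 1110 for VIM itself. Its density was 36.9 to 59.0 times that of VIM in the single libraries. VIM-AS1 had 22.4 times the density of VIM, and KRT7-AS 8.40 to 12.7 times that of KRT7 in the single libraries. CD44-AS1 had 59.3 times the density of CD44 and ALDH1A3-AS1 4.52 times that of ALDH1A3. These densities are over all exons of each gene, not over the shared bases. The part of the exon length inside marker exons was 30.9% for VIM-AS1, 16.7% for KRT7-AS, 14.3% for CD44-AS1 and 22.1% for ALDH1A3-AS1. At CDH2 the gene ENSG00000227279 had 62.3 times the density of CDH2, and at CDH1 ENSG00000260798 had 64.3 times that of CDH1. The other-strand gene was also denser at CLDN7 (ELP5, 103 times), KRT18 (KRT8, 3.9 times), ELF3 (ELF3-AS1, 2.69 times) and ZEB2 (ZEB2-AS1, 2.61 times). The part of the exon length inside marker exons was only 1.25% for ELP5 and 7.63% for KRT8, both protein-coding genes. It was 11.9% for ELF3-AS1 and 41.4% for ZEB2-AS1. At UPK2, ZEB1 and TWIST1 the other-strand gene was the less dense one. BCL9L had 0.591 times the density of UPK2, ZEB1-AS1 0.319 times that of ZEB1 and ENSG00000232821 0.195 times that of TWIST1. At KRT7, where KRT7-AS was denser, another gene of the opposite strand, KRT87P, had 0.084 times the density of KRT7. From which transcript the reads at a marker came cannot be told from the table. A value below is therefore a number of reads assigned to a gene, and a low value does not show that its mRNA is absent.

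Shared exons at 3 of the 4 marker loci where other-strand genes differed between SP and NSP cells (CD44, VIM and ALDH1A3) are shown because reads from these bases can be assigned to either gene, depending on their strand. Each line gives the longest coding stretch of the marker that lies in an exon of the other-strand gene, read 5′ to 3′ on the plus strand of GRCh37, which is the strand of all 3 markers. Capitals mark the shared coding bases, and lower case marks 15 neighbouring bases on each side.
CD44 and CD44-AS1, chr11:35236384-35236476: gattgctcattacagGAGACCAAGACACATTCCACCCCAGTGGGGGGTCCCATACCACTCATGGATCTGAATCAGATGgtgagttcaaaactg
VIM and ENSG00000234961, chr10:17275754-17275912: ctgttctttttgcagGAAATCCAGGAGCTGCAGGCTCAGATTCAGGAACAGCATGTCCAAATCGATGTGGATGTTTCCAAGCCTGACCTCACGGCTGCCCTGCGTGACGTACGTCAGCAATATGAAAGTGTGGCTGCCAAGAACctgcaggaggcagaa
ALDH1A3 and ALDH1A3-AS1, chr15:101432700-101432859: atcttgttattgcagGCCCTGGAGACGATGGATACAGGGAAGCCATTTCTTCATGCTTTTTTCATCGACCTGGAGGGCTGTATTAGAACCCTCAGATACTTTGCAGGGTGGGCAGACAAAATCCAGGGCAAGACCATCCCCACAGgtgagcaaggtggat

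The shared exonic bases were 84 at CD44, 282 at KRT7 and 619 at the VIM gene shown, of which 63, 221 and 342 are coding in the marker. At ALDH1A3 they were 1715, of which 505 are coding. The shared bases made up between 0.841% of the exon length (CD44) and 32.1% (ALDH1A3), so most of the exon length of each marker lies outside them.

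The levels of the markers, as CPM per kb of exon, were led by KRT8, KRT18, KRT7 and VIM. KRT8 had 521 on average over the 8 libraries (398 to 726), KRT18 had 134 (105 to 156), and KRT7 had 112 (63.0 on average in SP and 162 in NSP cells). The simple epithelial keratin KRT19 was lower, at 13.0 (3.39 to 24.2), below the 16.8 of the uroplakin UPK2. VIM, the intermediate filament protein of mesenchymal cells, had 80.3 (37.9 to 141). In this ranking KRT8, KRT18, KRT7 and VIM were above 99.9%, 99.2%, 98.9% and 98.4% of the 19404 protein-coding genes. KRT8 and KRT18 stand side by side on chromosome 12 and share 525 exonic bases on opposite strands, so the value of each may include reads from the other. Reads that also match keratin relatives or pseudogenes may have been left out or split, since the setting for such reads is not given in the sources used here.

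The counts assigned to markers of the basal layer were at or near 0, with 2 exceptions. KRT6A, TP63 and DSG3 had no count in any library, KRT5 and KRT14 had 1 count each in all, and CDH3 (P-cadherin) had 4. For a gene without a count, the expected count in a library can still have been up to 3, which is 1.45 to 2.16 CPM. These limits cover counting error only. The exceptions were CD44, the hyaluronan receptor, at 7.64 CPM per kb, and KRT17, a keratin of basal and injured epithelium, at 1.67. KRT17 had 5 to 17 counts per library and was too low for the test.

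The counts assigned to luminal markers were low as well, apart from UPK2. KRT20 and UPK3A had no count, and UPK1A had 1, GRHL3 3, ELF3 12 and UPK1B 13 over the 8 libraries. GATA3, the transcription factor that marks luminal urothelium, had 34 counts, 1 to 8 per library, or 0.748 CPM per kb. UPK2, a uroplakin, had 253 counts, and its level of 16.8 CPM per kb was above that of 92.7% of protein-coding genes. It shares 54 exonic bases with BCL9L on the other strand, whose density was 0.591 times its own.

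The adhesion genes of epithelial cells were between 3 and 68 counts in all. CLDN4 and CLDN7, claudins of the tight junction, had 68 and 38, CDH1 had 24 and EPCAM had 3. None of the 4 had enough counts for the test. By contrast CDH2 had 463 counts, 29 to 80 per library, at 4.04 CPM per kb. Both genes have an other-strand gene of far higher density, and that gene had 2162 counts at CDH2 and 143 at CDH1.

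Among the mesenchymal transcription factors, TWIST1 had the highest level, 4.88 CPM per kb. ZEB1 had 1.04, SNAI2 0.996 and ZEB2 0.533, while SNAI1 had 2 counts in all and TWIST2 none. Of the stem-like markers, SOX9 had 8.31 CPM per kb, ALDH1A3 2.49 and BMI1, a Polycomb subunit, 1.86. PROM1 (CD133) had no count, SOX2 had 1 and ALDH1A1 had 2. Among the 12939 protein-coding genes that no exon of the opposite strand overlaps, 27.9% had no count, so an empty value is common in this table. Among these genes the level of KRT19 was above 94.2%, that of SOX9 above 91.4% and that of KRT17 above 74.9%.

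**Figure D1:**
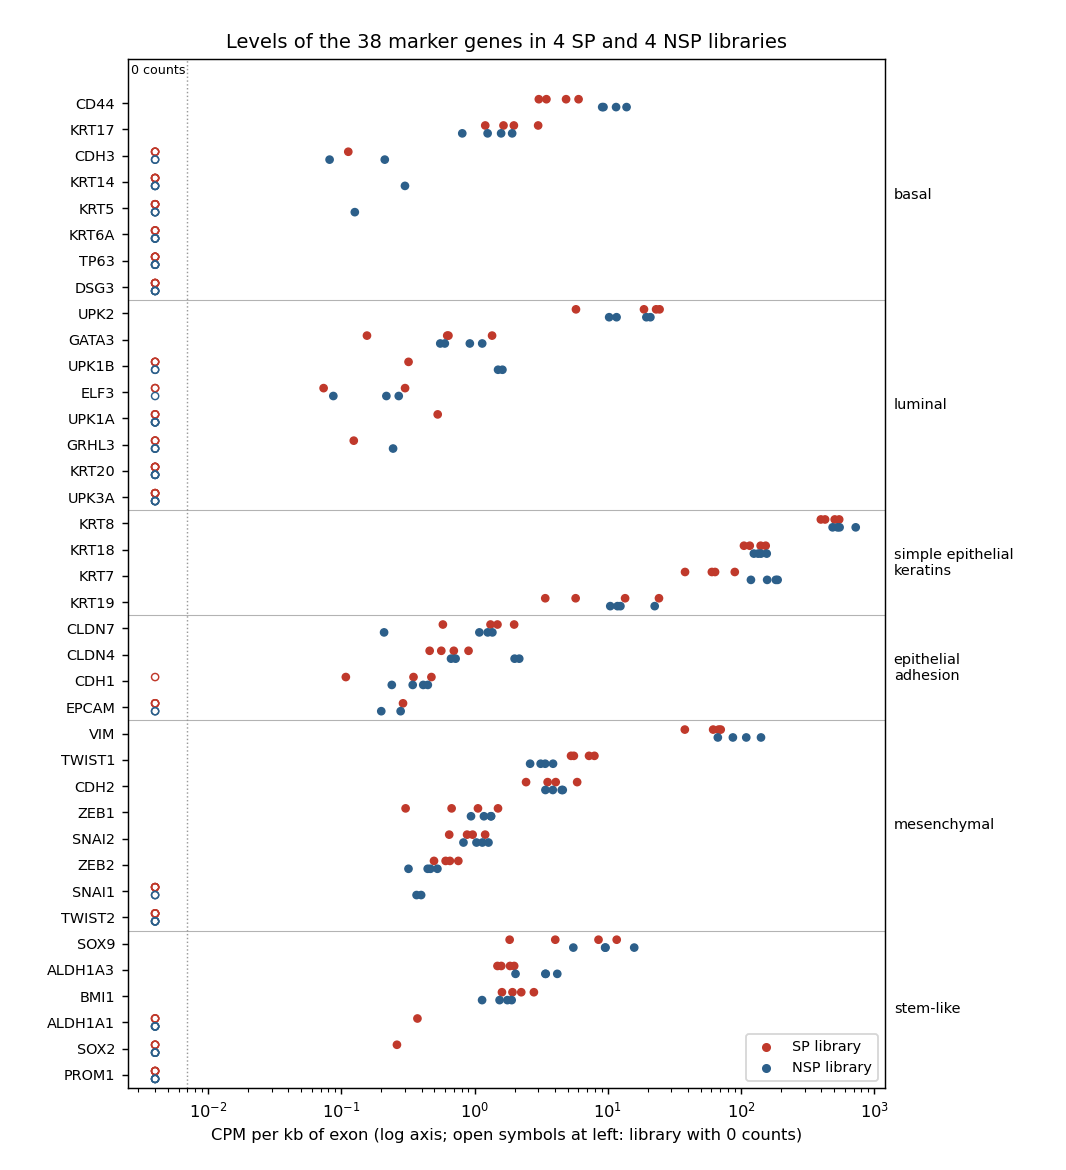
Level of each of the 38 markers in CPM per kb of exon (log axis), with 1 point per library in SP (red) and NSP (blue) cells and open symbols at the left for libraries with 0 counts. KRT8, KRT18, KRT7 and VIM are highest, and KRT6A, TP63, DSG3, KRT20, UPK3A, TWIST2 and PROM1 have only open symbols.

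Genes of the same kinds that are not among the 38 were taken from lists of such genes. In 20 further basal genes, KRT1, KRT6C and KRT13 had no count and TFAP2A had the most, with 129 ± 13.97 CPM in SP and 97.7 ± 11.61 CPM in NSP cells (mean ± SD of 4 libraries). EGFR and ITGB4 came next with 605 and 586 counts over the 8 libraries, and 7 of the 20 had enough counts for the test. In 18 further luminal genes, 5 had no count, and ERBB2 had the most (246 ± 33.8 and 251 ± 31.1 CPM). XBP1 and KLF5 came next with 1187 and 256 counts, and 4 of the 18 had enough for the test. Markers of other cell types were counted too, but their low counts do not show that foreign RNA was absent. The 4 endothelial markers summed to 0 to 3 counts per library and the 4 erythroid markers to 0 to 1. The 6 leukocyte markers summed to 8 to 22, nearly all on CD68, with PTPRC and CD3E at 0. CD68 overlaps in its exons with a counted gene of the opposite strand. Of the 5 fibroblast markers, COL3A1 had 232 to 394 CPM in SP and 183 to 299.7 CPM in NSP libraries, LUM had 82 counts in all, with 6.98 CPM in SP and 5.42 CPM in NSP cells on average, DCN and FAP had no count and PDGFRA had 1. LUM was not called (log2 fold change 0.43), and COL3A1 did not pass the test (log2 fold change 0.28, standard error, SE, 0.20, adjusted p by edgeR = 0.524).

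SP and NSP cells were then compared. Of the 38 markers, 14 had enough counts for edgeR's quasi-likelihood test, and 24 did not. Calls need a Benjamini-Hochberg adjusted p-value under 0.05 over all 9309 tested genes and a fold change over 1.3. CD44 and KRT7 were lower in SP cells and 0 markers were called higher, by edgeR or by DESeq2. An unadjusted p under 0.05 was found for CD44, KRT7, VIM, ALDH1A3 and TWIST1, of which TWIST1 was the higher one in SP cells. These 5 are 35.7% of the 14 tested markers, against 16.4% of all tested genes. Over all tested genes 2.03% were called lower, 1.63% were called higher and 3.66% in either direction, and the 2 called markers are 14.3% of the 14. The median log2 fold change was -0.26 over the 14 markers and 0.01 over all tested genes, with 10 markers below 0 and 4 above. CPM values of the groups did not overlap for 4 markers (CD44, KRT7, TWIST1 and ALDH1A3), and for 9.78% of all tested genes.

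The labels do not state that same-numbered SP and NSP libraries are paired, but these deviated together from their group means (correlations 0.205 to 0.383). With the number as a block in the model 6 of the 14 markers were called, against 12.9% of all tested genes. These were CD44, KRT7, VIM, ALDH1A3 and SOX9, lower in SP cells, and TWIST1, higher. In bulk RNA, fewer cells of a kind and less RNA per cell cannot be told apart. The share of counts on mitochondrially encoded genes was 3.46% to 7.57% in SP and 1.65% to 4.01% in NSP libraries, and its part in these differences was not tested. With those genes left out, CD44 and KRT7 were again the called markers. This fit only removes the counts of those genes, so it cannot test that part.

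**Figure D2:**
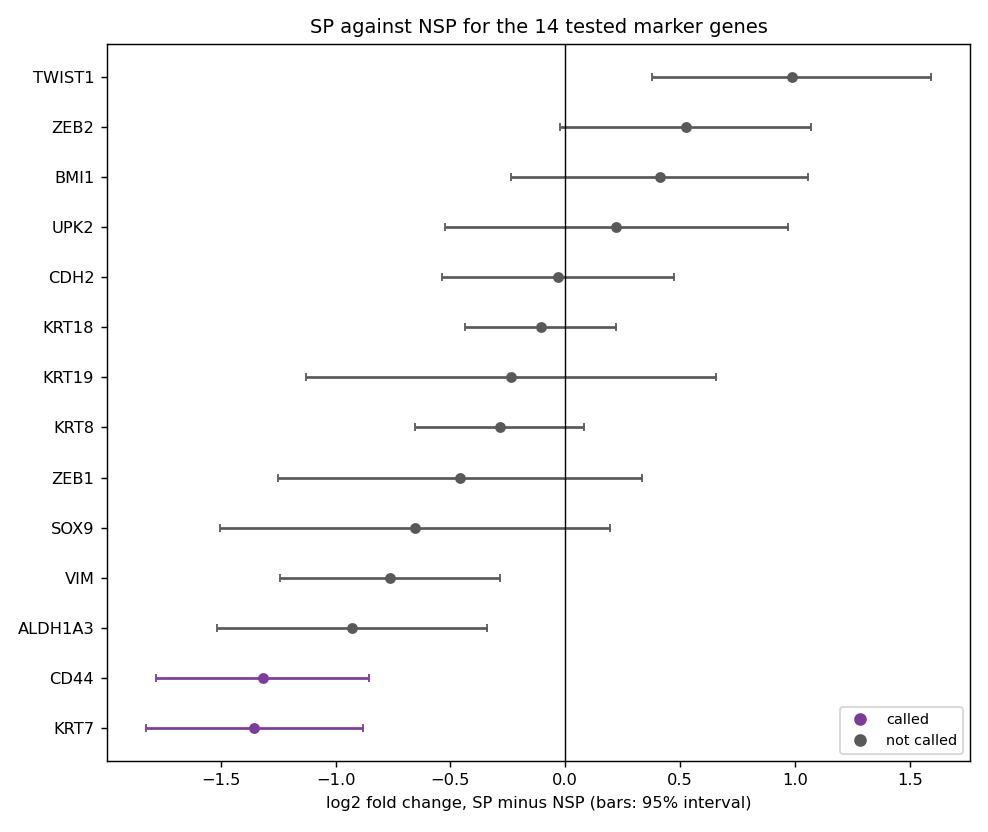
Log2 fold change of the 14 tested markers, SP minus NSP, with 95% intervals from edgeR's quasi-likelihood fit and called genes in purple. CD44 and KRT7 lie at -1.32 and -1.35, and TWIST1 has the highest value, 0.99.

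KRT7, the type II keratin of simple epithelia, was 2.55 times lower in SP cells. Its CPM values were 255, 242, 359 and 152 in SP replicates 1 to 4 and 753, 628, 730 and 475 in NSP replicates 1 to 4. Every SP library was below every NSP library, and the replicate 4 library was the lowest of each group. On the log2 scale the fold change was -1.35 (SE 0.22, 95% interval from -1.82 to -0.88, adjusted p by edgeR = 0.00342). When any 1 library was omitted it ranged from -1.58 to -1.18 and was called in all 8 of these fits. The gene lies on chromosome 12 of GRCh37, 52626304 to 52645970.

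KRT7-AS, on the other strand of KRT7, was lower as well, with 1051 ± 274 CPM in SP and 3150 ± 722 CPM in NSP cells (mean ± SD of 4 libraries). Its values were 1113, 1161, 1278 and 654 in SP and 3449, 2997, 3925 and 2228 in NSP replicates. On the log2 scale the fold change was -1.58 (SE 0.22, adjusted p by edgeR = 9.48e-04). KRT87P, a keratin pseudogene that shares 32 exonic bases with the end of KRT7, was lower too, at 5.85 ± 2.67 against 22.1 ± 1.99 CPM (log2 fold change -1.88, SE 0.31, adjusted p by edgeR = 0.00337).

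The other simple epithelial keratins were not called. KRT8, the main type II chain of simple epithelia, had 2943, 2735, 3755 and 3476 CPM in SP and 3352, 3645, 4996 and 3781 CPM in NSP replicates. The groups overlapped, each SP library was below the NSP library of the same number, and the log2 fold change was -0.29 (95% interval -0.65 to 0.08). KRT18, its type I partner, had 395 ± 67.2 CPM in SP and 427 ± 40.1 CPM in NSP cells (mean ± SD of 4 libraries), with a log2 fold change of -0.11 (95% interval -0.43 to 0.22). KRT19 had 13.4, 31.5, 56.6 and 7.93 CPM in SP and 27.6, 29.1, 52.6 and 24.4 CPM in NSP replicates. Its SP values spanned the whole NSP range, and the log2 fold change of -0.24 (95% interval -1.13 to 0.66) allows a change in either direction.

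KRT7 was also set against its relatives by ratios within each library. The ratios were formed after its values were seen and are given as a description, with no test. The ratio of KRT7 to KRT8 in CPM per kb was 0.149, 0.152, 0.165 and 0.0753 in SP and 0.387, 0.297, 0.251 and 0.216 in NSP replicates. All SP ratios were below all NSP ratios (difference of mean log2 ratios -1.12). The ratio to KRT18 was 0.271 to 0.586 in SP and 0.841 to 1.4 in NSP libraries (difference -1.28). The ratio to KRT19 was 3.71 to 11.2 in SP and 8.12 to 15.9 in NSP libraries, which overlapped (difference -0.79).

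CD44, an adhesion receptor and a marker of basal urothelium, was 2.49 times lower in SP cells. It had 30.3, 48.6, 60.3 and 34.6 CPM in SP and 138, 115, 90.7 and 92.8 CPM in NSP replicates, from 43 to 114 and 137 to 265 counts. No SP library reached an NSP library. On the log2 scale the fold change was -1.32 (SE 0.22, 95% interval from -1.78 to -0.85, adjusted p by edgeR = 0.00376), and ranged from -1.53 to -1.18 when any 1 library was omitted, called in all 8 fits.

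CD44-AS1 lies inside the span of CD44 (chromosome 11, 35160429 to 35253949) and gave the same direction from more counts. It had 168, 164, 135 and 103 CPM in SP and 455, 460, 364 and 273 CPM in NSP replicates, without overlap. The edgeR estimate on the log2 scale was -1.44 (SE 0.20, adjusted p by edgeR = 8.63e-04).

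**Figure D3:**
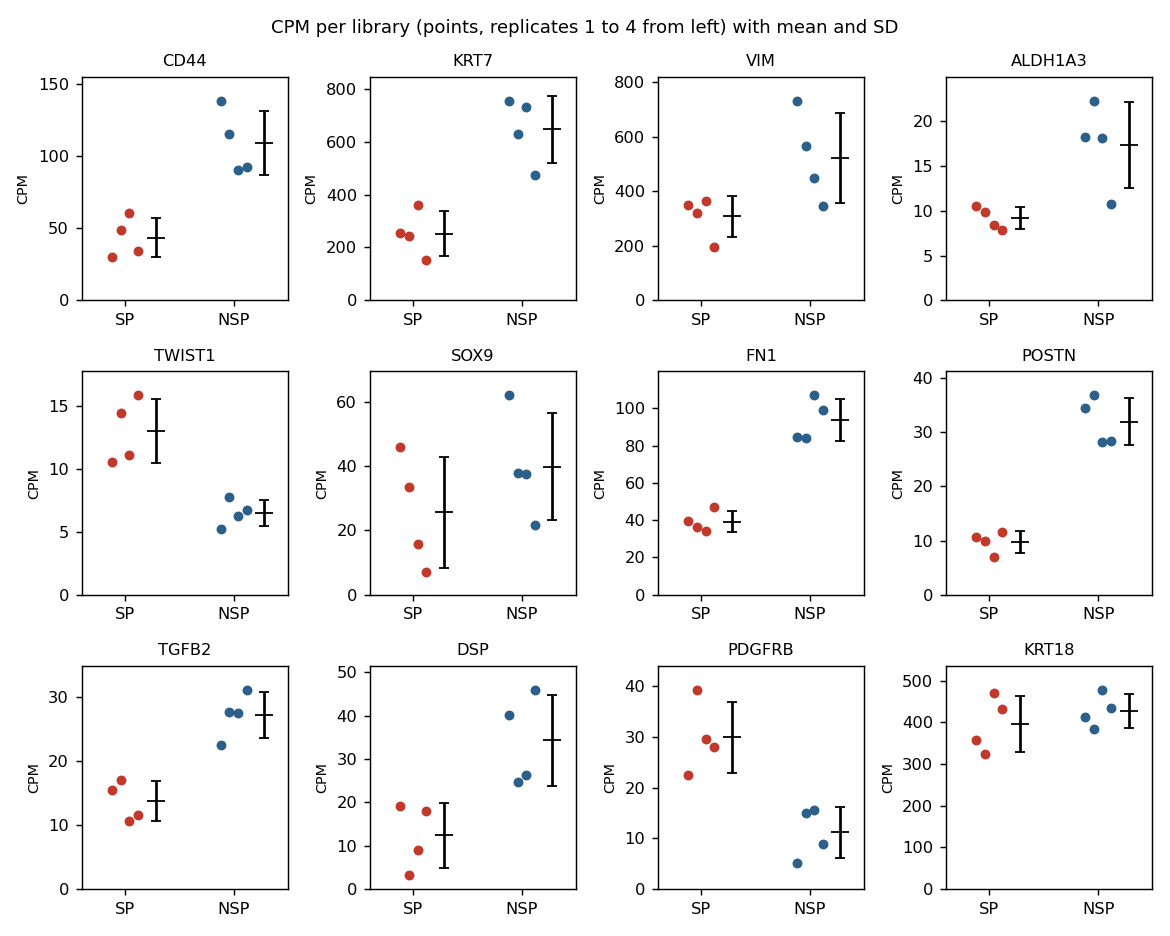
CPM of 6 markers with KRT18 beside them and of 5 related genes in each library (points, replicates 1 to 4 from left to right), with the mean and SD of the 4 libraries of each group. SP and NSP points are apart for CD44, KRT7, ALDH1A3, TWIST1, FN1, POSTN, TGFB2, DSP and PDGFRB, and overlap for VIM, SOX9 and KRT18.

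VIM had 351, 320, 364 and 196 CPM in SP and 731, 567, 450 and 347 CPM in NSP replicates. The lowest NSP library was below the highest SP libraries, and each SP library was below the NSP library of its number. Without a block VIM was not called by edgeR (log2 fold change -0.76, SE 0.23, adjusted p by edgeR = 0.0784), and with the block it was, at -0.75. DESeq2 also called it, at -0.78, as did the fit without NSP replicate 4, at -0.92, and the fit without a filter on low counts, at -0.79.

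Both other-strand genes at VIM were called lower in the fit that did not call VIM. VIM-AS1 had 2987, 3017, 2660 and 1868 CPM in SP and 6694, 5395, 4659 and 3444 CPM in NSP replicates, which did not overlap. The edgeR estimate on the log2 scale was -0.94 (SE 0.21, adjusted p by edgeR = 0.0215). It was not called without SP replicate 4 (-0.81), NSP replicate 1 (-0.78) or NSP replicate 2 (-0.91). ENSG00000234961 had 1889 ± 316 CPM in SP and 3735 ± 852 CPM in NSP cells (mean ± SD of 4 libraries), a log2 fold change of -0.98 (SE 0.19, adjusted p by edgeR = 0.00949), and was called in all 8 fits with a library left out.

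TWIST1 encodes a basic helix-loop-helix factor of mesenchymal cells. Its fold change was the largest positive one of the tested markers, but smaller in size than the decreases of KRT7 and CD44. TWIST1 had 10.6, 14.4, 11.1 and 15.9 CPM in SP and 5.22, 7.75, 6.26 and 6.77 CPM in NSP replicates, from 15 to 22 and 10 to 16 counts. The groups did not overlap. The estimate of 0.99 on the log2 scale (SE 0.29, 95% interval 0.38 to 1.59) did not pass without a block (adjusted p = 0.0728 by edgeR). It was called higher with the block, at 0.98, and among genes with at least 10 counts in every library, also at 0.98.

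The remaining mesenchymal markers were not called in any fit. ZEB2 had 19.8, 17.1, 15.9 and 13.0 CPM in SP and 8.35, 11.6, 13.8 and 12.2 CPM in NSP replicates, each SP library above the NSP library of its number, with a log2 fold change of 0.52 (95% interval -0.02 to 1.07). ZEB1 had 9.17, 2.63, 5.82 and 13.0 CPM in SP and 11.5, 10.2, 8.13 and 11.5 CPM in NSP replicates, and SP replicate 2 was the lowest of all 8. This gave a log2 fold change of -0.46 (95% interval -1.25 to 0.34). CDH2 had 34.2 ± 12.4 CPM in SP and 35.1 ± 4.84 CPM in NSP cells (mean ± SD of 4 libraries), a log2 fold change of -0.03 (95% interval -0.54 to 0.47). Its other-strand gene ENSG00000227279 had -0.26 (SE 0.17) and was not called either. SNAI2 was too low for the test, with 3 to 8 counts per library.

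Among the stem-like markers ALDH1A3, a retinaldehyde dehydrogenase, had 10.6, 9.85, 8.46 and 7.93 CPM in SP and 18.3, 22.3, 18.1 and 10.8 CPM in NSP replicates. The groups did not overlap, with NSP replicate 4 just above the highest SP library. On the log2 scale the fold change was -0.93 (SE 0.28, adjusted p by edgeR = 0.0817) without the block, and ALDH1A3 was called with it, at -0.91, and without NSP replicate 4, at -1.09.

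ALDH1A3-AS1 was called lower in SP cells in the fit without the block. It had 49.4, 61.1, 52.4 and 28.1 CPM in SP and 155, 149, 120 and 73.1 CPM in NSP replicates, again without overlap. The edgeR estimate on the log2 scale was -1.38 (SE 0.25, adjusted p by edgeR = 0.0061).

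SOX9, a transcription factor of progenitor cells in many epithelia, had 45.9, 33.5, 15.9 and 7.21 CPM in SP and 62.1, 37.8, 37.5 and 21.7 CPM in NSP replicates. The groups overlapped widely, but each SP library was below the NSP library of the same number. The log2 fold change was -0.65 (95% interval -1.50 to 0.19) without the block and -0.70 with it, where SOX9 was called. SOX9 has no counted gene across its exons on the opposite strand. BMI1 had 9.40 ± 2.21 CPM in SP and 6.97 ± 1.46 CPM in NSP cells (mean ± SD of 4 libraries), with a log2 fold change of 0.41 (95% interval -0.24 to 1.06).

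The only luminal marker with a test, UPK2, had 27.5, 21.0, 25.9 and 6.49 CPM in SP and 23.5, 13.1, 21.9 and 11.5 CPM in NSP replicates. SP replicate 4 was the lowest of all 8, and the other SP libraries lay within or just above the NSP range. This gave a log2 fold change of 0.22 (95% interval -0.52 to 0.97).

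Across the loci of tested markers, 8 other-strand genes that are not markers themselves were tested, and 6 were called lower and 0 higher in SP cells. They are CD44-AS1, KRT7-AS, KRT87P, VIM-AS1, ENSG00000234961 and ALDH1A3-AS1, while BCL9L at UPK2 and ENSG00000227279 at CDH2 were not called. BCL9L had 160, 106, 156 and 64.9 CPM in SP and 110.0, 98.3, 101 and 56.2 CPM in NSP replicates, each SP library above the NSP library of its number (log2 fold change 0.42, SE 0.26). At untested markers, ELP5 across CLDN7 had 339 ± 20.7 CPM in SP and 371 ± 49.3 CPM in NSP cells, and ENSG00000260798 across CDH1 had 8.90 ± 3.71 and 12.7 ± 3.80 CPM (mean ± SD of 4 libraries). Neither was called (log2 fold change -0.12 and -0.52). Of all tested genes that an opposite-strand exon overlaps, 2.64% were called lower. Genome-wide, 63.7% of the 2141 tested pairs of such genes had fold changes of the same sign, and the share was 86.4% in the 140 pairs with at least 1 gene called. The genes of a pair were not taken as separate evidence. With every gene of this kind left out, 3 tested markers remain (KRT19, SOX9 and BMI1), and 0 are called.

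**Figure D4:**
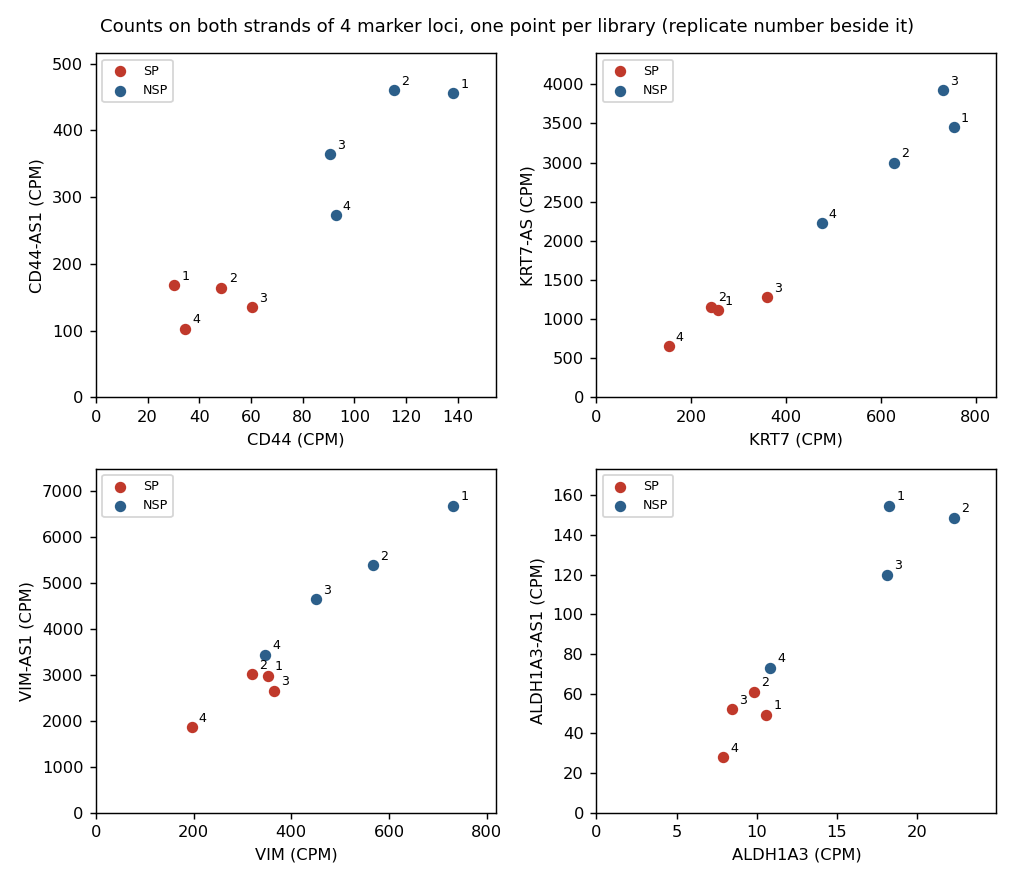
CPM of 4 markers (horizontal axes) against the gene on their other strand (vertical axes), with 1 point per library and its replicate number, SP in red and NSP in blue. On the vertical axes SP and NSP libraries are apart at all 4 loci, and on the horizontal axes they are apart for CD44, KRT7 and ALDH1A3 but not for VIM.

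Of the further genes in these lists, 139 were matched, 56 were tested, 4 were called lower and 1 was called higher in SP cells, where 2.03% and 1.63% of all tested genes were. In the mesenchymal list 17 of 28 were tested, with 3 lower and 1 higher. FN1, which encodes the matrix protein fibronectin, had 39.5, 36.1, 34.4 and 46.8 CPM in SP and 84.5, 84.3, 107 and 98.9 CPM in NSP replicates. The groups lay far apart, and the log2 fold change was -1.25 (SE 0.17, adjusted p by edgeR = 8.63e-04). POSTN, for the matrix protein periostin, had 9.71 ± 2.01 CPM in SP and 32.0 ± 4.34 CPM in NSP cells (log2 fold change -1.73, SE 0.24, adjusted p by edgeR = 9.34e-04). Neither overlaps in its exons with a counted gene of the opposite strand, and both were called in every fit run.

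TGFB2, a ligand that induces mesenchymal features in many epithelial cells, had 13.7 ± 3.12 CPM in SP and 27.2 ± 3.59 CPM in NSP cells (log2 fold change -0.99, SE 0.23, adjusted p by edgeR = 0.0274). PDGFRB, a receptor tyrosine kinase of mesenchymal cells, was the gene called higher, with 22.6, 39.4, 29.6 and 28.1 CPM in SP and 5.22, 15.02, 15.6 and 8.80 CPM in NSP replicates. The edgeR estimate on the log2 scale was 1.42 (SE 0.30, adjusted p by edgeR = 0.0164). PDGFRB likewise has no such gene, whereas TGFB2 and DSP below do. PDGFRB was not called without SP replicate 2 (log2 fold change 1.26), and TGFB2 was called in 3 of 8 fits with a library left out. TGFB1, the mesenchymal list's gene with the most counts, had 784 ± 37.3 and 1123 ± 155 CPM and was not called by edgeR without the block (log2 fold change -0.52, adjusted p by edgeR = 0.0637), while it was with it, at -0.51.

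In the epithelial adhesion list 12 of 24 genes were tested, and their median log2 fold change was above 0, at 0.24. The medians of the further luminal, basal, stem-like and mesenchymal lists were 0.22, -0.03, -0.07 and -0.11, and that of all tested genes was 0.01. In the adhesion list only DSP, for the desmosome protein desmoplakin, was called, and DSP was lower in SP cells. It had 19.1, 3.28, 8.99 and 18.0 CPM in SP and 40.2, 24.7, 26.3 and 46.0 CPM in NSP replicates, without overlap. On the log2 scale the fold change was -1.49 (SE 0.37, adjusted p by edgeR = 0.0336), and it was called in 3 of 8 fits with a library left out, reaching -1.18 without SP replicate 2. CTNNA1 and CTNNB1, the catenins that link cadherins to the cell cortex, were not called without the block, at 0.51 and -0.29. In the further basal, luminal and stem-like lists, 7, 4 and 10 genes were tested and 0 were called in either direction without the block. SOX4 had the most counts of the stem-like list, with 88.2 ± 25.4 CPM in SP and 48.3 ± 17.2 CPM in NSP cells (mean ± SD of 4 libraries). It did not pass without the block (log2 fold change 0.87, adjusted p = 0.0751 by edgeR).

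With the replicate number as a block, 15 of the 56 tested list genes were called, 6 higher and 9 lower, where 12.9% of all tested genes were called. The genes added among the higher ones were SOX4 at 0.88, the Notch target HES1 at 0.79, CTNNA1 at 0.51, the actin-binding protein gene CALD1 at 0.41 and TFAP2A at 0.40 on the log2 scale. Those added among the lower ones were LAMB3 (a laminin chain of the basal layer) at -1.65, the matrix genes TGFBI at -1.29 and SPARC at -0.62, the receptor kinase AXL at -0.54 and TGFB1 at -0.51. Of these added genes, CTNNA1, TFAP2A, SPARC, AXL and TGFB1 overlap in their exons with a counted gene of the opposite strand. SOX4, HES1, CALD1, LAMB3 and TGFBI do not.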

How the data were processed

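The 8 libraries of J82 cells (4 SP, 4 NSP) were sequenced as single-end reads of 50 bp. The authors used STAR on hg19 and deposited raw counts per gene from featureCounts on gencode version 19, without normalization; tool versions, the strand setting and the treatment of multi-mapping reads are not given in the sources used here. Each library was matched to its group and number by its column name.

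The test was that of edgeR 4.0.16 under R 4.3.3 on the deposited counts of all genes (TMM scaling, filterByExpr with a minimum count of 10 and minimum total of 15, glmQLFit and glmQLFTest, no covariate). A call needed a Benjamini-Hochberg value under 0.05 with a fold change above 1.3, the study's cutoff. CPM uses TMM-normalized library sizes, and levels are CPM divided by the length of all exons in kb. The standard error is the log2 fold change divided by the root of F. Symbols, positions and exons came from GENCODE version 44 mapped to GRCh37, the build of hg19, and 96.1% of table genes were found there; its exons can differ from those counted. Markers, lists and tests were chosen with earlier results of these data known. Of the list symbols 2 (CD24 and PECAM1) had no match.

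Same-numbered SP and NSP libraries deviated together from their group means (correlations 0.383, 0.205, 0.323 and 0.323 for numbers 1 to 4), so the number was also fitted as a replicate block. Replicates differed by more than sampling noise (chi-square per degree of freedom 5.61 to 13.5). Each was counted as 1 sample, although this spread does not show that they came from separate cultures or sorts. The other alternatives were other size factors, DESeq2 1.42.0, limma 3.58.1 voom, other filters, leaving out mitochondrially encoded genes, genes with an other-strand exon or single libraries, and, added after seeing the data, both libraries of number 4. The fits were tested on simulated counts. All 38 markers were accounted for. Values are given for tested markers, for other-strand genes with at least 100 counts, and for list genes that were called or had the most counts. The shared exon sequence at KRT7 is not reported here.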

Additional observations from a re-analysis of the deposited data

Results flagged for a closer look

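A single library stood well apart from its group in 3 of the 58 sets of 4 values examined, and about 1 in 20 does so by chance. The gap to the nearest library, as a share of the group's range, was 0.834 for KRT19 in NSP cells (replicate 3, the highest), 0.892 for KRT87P in NSP cells (replicate 3, the highest) and 0.848 for ENSG00000260798, the other-strand gene at CDH1, in SP cells (replicate 4, the highest).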

How the results depend on the processing

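CD44 and KRT7 kept their direction and call under every alternative that tested them. Of 238 fold changes of markers recomputed under the alternatives, 222 kept direction and call, 9 passed the threshold in addition and 7 changed sign. KRT19 ranged from -0.897 to 0.0605 with single libraries left out, and was 0.048 without SP replicate 4 and 0.0605 without NSP replicate 3. CDH2 ranged from -0.277 to 0.131, and was 0.0213 without SP replicate 1, 0.131 without SP replicate 4, 0.017 without NSP replicate 2, 0.0241 without NSP replicate 3 and 0.105 without both libraries of number 4. The cause was not tested for these changes or those below, unless the setting itself gives it.

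With the replicate block 1 marker was called higher and 5 lower, 6 list genes higher and 9 lower, and 548 genes higher and 652 lower in all, against 152 and 189 without it; among the markers it changed no call beside those of VIM, ALDH1A3, SOX9 and TWIST1. Without a filter on low counts there were 303 genes higher and 381 lower, with 3 list genes higher and 7 lower. With at least 10 counts in every library 1 marker was called higher. Leaving out genes with an other-strand exon, which removes 11 of the 14 tested markers, left 59 genes higher and 62 lower, 0 markers lower and 2 list genes lower. Without both libraries of number 4 there were 80 genes higher and 0 list genes higher. With single libraries left out, 69 to 164 genes were higher and 89 to 181 lower, 2 to 4 markers were lower and 0 higher, and 1 to 2 list genes were higher and 2 to 4 lower; the counts were 69 and 89 without NSP replicate 2, 91 and 110 without SP replicate 2, and 93 higher without NSP replicate 1, and 4 markers lower is without NSP replicate 4. List genes were 2 higher without SP replicate 1, and 2 lower without SP replicate 3 or NSP replicate 2.

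Levels depend on the exon length used: with the longest transcript in place of all exons KRT8 rose to 1250, KRT7 to 276, KRT18 to 197 and VIM to 156 CPM per kb. At these counts 24 of the 38 markers did not pass the filter on low counts and were not tested.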

Other observations

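Of 12 markers of the neuronal subtype of bladder cancer, INSM1 and NEUROD1, transcription factor genes of neuroendocrine cells, had no count, and 3 genes were tested with 0 called. ENO2 had the most counts, with 53.5 ± 5.30 CPM in SP and 46.9 ± 13.0 CPM in NSP cells (mean ± SD of 4; log2 fold change 0.19, standard error 0.20), followed by PEG10 with 34.6 ± 11.5 and 34.1 ± 9.41 CPM (log2 fold change 0.05, standard error 0.25).

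Over the 2141 pairs of tested genes with exons across each other on opposite strands, the log2 fold changes of the pair had a Pearson correlation of 0.508, given as a description over pairs that share the same 8 libraries.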
